A study of Mus musculus with 8 samples.

Results

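The genes described here are 32 genes of the ciliated cells of the airway lining, chosen by name as a list of motile cilium genes, with no threshold on a measured value. Of the 32, 30 had a probe set that the platform annotation assigns to a single gene symbol, and Sntn and Lrriq1 had none. Of those 30, 29 reached the array median on 2 or more of the 8 arrays and were tested, among 13815 genes tested of 18191 measured. Spag17 reached it on 0 of 8 arrays and was not tested. The lungs came from male ICR mice, an outbred stock, aged 5 to 6 weeks, and RNA was taken from lobe 1 of the right lung. All mice received 1 instillation of 50 µl into the trachea under anaesthesia. Control mice received 0.1% Pluronic F-68 (PF68), a surfactant used to disperse the tubes, and exposed mice received 0.5 mg of single-walled carbon nanotubes (SWCNT) in the same PF68. Lungs were taken on day 1 or day 7, which gives the groups PF68 day 1, SWCNT day 1, PF68 day 7 and SWCNT day 7, with 2 arrays in each. Arrays of a group are labelled as biological replicates, but no label ties an array to an animal; the p-values therefore reflect the spread of the arrays alone, part of which may be technical. Untreated lungs were not analysed here.

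Motile cilia beat in waves to clear mucus and particles from the airways. Each cilium is built on an axoneme, a ring of microtubule doublets around a central pair, in which dynein arms drive sliding between doublets, radial spokes and nexin links coordinate it, and tektins and other filaments stiffen the doublets. The transcription factor Foxj1 switches on the genes for these parts together with RFX factors, which bind X-box elements in promoters of ciliary genes.

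The promoters of the members were searched for RFX and forkhead elements, since a shared element is a property the list was not chosen on. RefSeq promoters (GRCm38.p6, 250 bases before to 50 after a start) were matched by gene ID for 27 of the 32 genes, as 30 promoters. The ID was found by symbol where the platform annotation gave none. The RFX half-site GTTGCC, or its reverse complement GGCAAC, stood in the promoter of 15 of these 27 genes (55.6%), against 14.1% of the 27025 genes in the table. The forkhead core GTAAACA, or TGTTTAC on the other strand, stood in 3 of 27 (11.1%), against 4.05% of all genes. A match of these letters is a description and does not show that a factor binds. Of the 10 members that passed the expression test in any comparison below, 8 had a promoter in the table and 5 of those 8 held the half-site, as did 10 of the 19 other members with a promoter. The 250 bases before the start are printed 5′ to 3′ for the 4 called members whose half-site lies before the start, all on the plus strand of GRCm38.p6, with half-sites in capitals.
Ccdc153, chr9:44240427-44240676: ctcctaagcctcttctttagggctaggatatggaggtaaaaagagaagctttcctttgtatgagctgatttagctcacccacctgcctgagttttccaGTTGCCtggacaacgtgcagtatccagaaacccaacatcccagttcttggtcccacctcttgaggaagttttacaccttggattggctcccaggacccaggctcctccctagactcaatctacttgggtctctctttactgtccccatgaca
Dynlrb2, chr8:116504765-116505014: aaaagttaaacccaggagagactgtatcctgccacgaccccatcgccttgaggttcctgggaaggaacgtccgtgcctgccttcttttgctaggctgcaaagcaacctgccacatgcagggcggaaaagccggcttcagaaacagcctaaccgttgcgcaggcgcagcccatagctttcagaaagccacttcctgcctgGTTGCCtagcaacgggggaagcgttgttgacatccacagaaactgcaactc
Spag16, chr1:69826720-69826969: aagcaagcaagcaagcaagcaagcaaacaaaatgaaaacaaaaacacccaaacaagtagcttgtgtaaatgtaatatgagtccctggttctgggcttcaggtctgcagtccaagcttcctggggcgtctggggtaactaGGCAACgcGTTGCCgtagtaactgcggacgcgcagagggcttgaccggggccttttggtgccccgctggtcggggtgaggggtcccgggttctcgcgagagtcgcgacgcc
Ccdc113, chr8:95533850-95534099: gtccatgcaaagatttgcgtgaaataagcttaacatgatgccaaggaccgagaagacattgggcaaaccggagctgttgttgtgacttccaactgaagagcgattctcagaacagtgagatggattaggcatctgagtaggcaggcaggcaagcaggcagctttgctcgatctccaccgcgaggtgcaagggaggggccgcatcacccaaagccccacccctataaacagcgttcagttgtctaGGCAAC
In the Ccdc153 promoter the half-site begins 152 bases before the start, and in that of Dynlrb2 it begins 51 bases before. Spag16 holds a half-site in each orientation, beginning 111 and 103 bases before the start. In the Ccdc113 promoter GGCAAC ends at the last base before the start. The fifth called member with a half-site, Tekt4, holds it after the start. These letters were not in the windows of Rsph9, Dnah6 and Dnah9.

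Values are the deposited signals, read as log2. Once sorted, the values were identical on all 8 arrays (median -0.628, lowest -5.88, highest 8.31), so differences are relative to the other genes on the array. Probe sets differ in affinity, so the signal of one gene is not compared with that of another. Lung markers were present: the 10 measured alveolar type 1 genes averaged 5.19 to 5.53 per array and the 9 type 2 genes 6.18 to 6.43. The 6 testis genes, from another tissue rich in axoneme transcripts, averaged -1.73 to -0.51, and 4 of the 6 had means below the array median. The mean over the 30 members was 0.22 and 0.36 in the PF68 day 1 arrays, 0.21 and 0.18 in SWCNT day 1, 0.72 and 0.70 in PF68 day 7, and 0.53 and 0.72 in SWCNT day 7. Both groups of day 7 thus stood above both groups of day 1, and the 2 treatments overlapped on day 7. For 5 members (Dnah5, Dnah1, Rfx2, Spag16 and Spag17) the mean over all arrays lay below the array median, where signal is weak. Where arrays were scaled instead to 18 hybridization spikes, every PF68 difference between the days fell by 0.76 and every SWCNT minus PF68 difference on day 7 rose by 0.61, which turns the direction of small differences in these comparisons. Members are therefore read against all genes, whose distance from the members does not depend on that scaling.

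**Figure D1:**
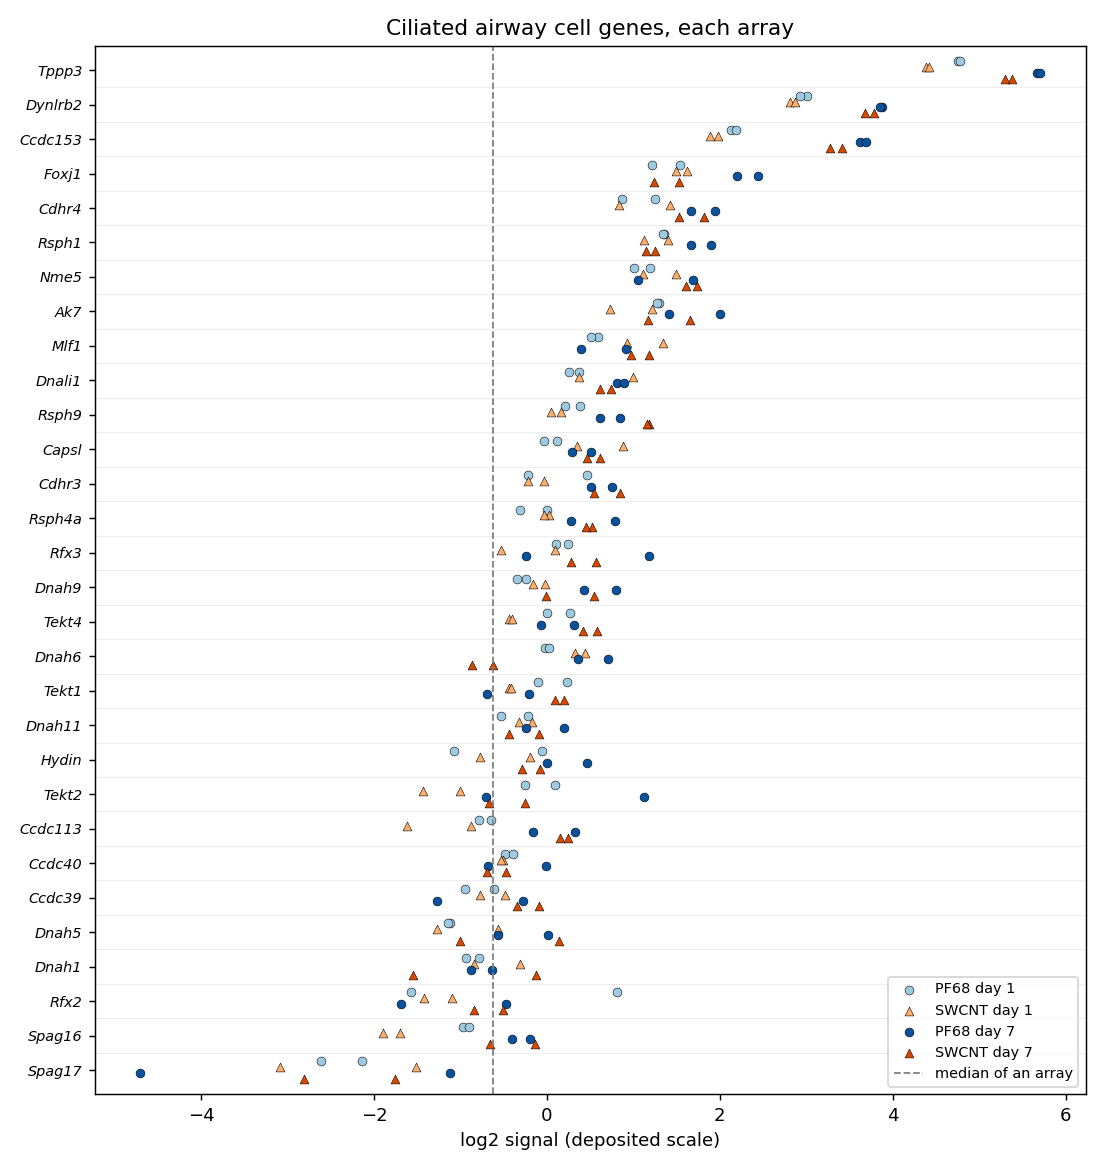
Signal of the 30 measured members in each of the 8 arrays (horizontal axis, log2 on the deposited scale), with circles for PF68, triangles for SWCNT, pale for day 1 and dark for day 7, and a dashed line at the array median of -0.628. The dark symbols of Tppp3, Dynlrb2 and Ccdc153 stand to the right of the pale ones, and Spag17 lies below the array median on every array.

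The first question was how the ciliated cell genes differed between day 1 and day 7 after instillation, first in the solvent control. In all, 5 comparisons were fitted with limma over all 8 arrays, and a member was called at a Benjamini-Hochberg adjusted p under 0.05 over 13815 genes. In PF68 lungs 5 of 29 tested members were higher on day 7 and 0 lower, against 8.92% of all tested genes called higher and 8.93% called lower. The 5 were Foxj1, Dnah9, Dynlrb2, Tppp3 and Ccdc153. The median difference over the 30 members was 0.43, against 0.04 over all genes, and 26 of 30 differences were above 0; scaled to the spikes, the medians were -0.33 and -0.72 and 8 of 30 were above 0. Both day 7 arrays exceeded both day 1 arrays for 18 of 30 members and lay below them for 1, against 29.6% and 25.5% of all genes. Scaled to the spikes, 4 members were called, 1 higher and 3 lower. The scaling moves the difference of every gene by -0.76, so this count is not read as a result about the members. Without either one of the PF68 day 1 arrays, limma called 0 members in this comparison.

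In SWCNT lungs 7 of 29 tested members were higher on day 7 and 1 was lower, against 9.68% and 6.78% of all tested genes. The 7 were Rsph9, Dynlrb2, Tekt4, Tppp3, Spag16, Ccdc113 and Ccdc153, and the 1 was Dnah6. Of the 7, Spag16 and Ccdc113 reached the array median on day 7 arrays only. Both were thus tested through the day on which they were high, and their calls add no support to the count. The median difference was 0.46 over the members and 0.08 over all genes, or 0.60 and 0.22 scaled to the spikes. Both day 7 arrays were above both day 1 arrays for 17 members and below for 1, against 32.5% and 23.6% of all genes. Calls numbered 4 and 3 without one or the other SWCNT day 1 array, and 2 and 1 without one or the other SWCNT day 7 array. These comparisons share no array with those in PF68, but the same fit over all arrays gave each gene 1 residual spread for both. A gene with a small spread is thus favoured in both, and the calls are not independent. Fitted on only the arrays compared, limma called 0 members between the days in either treatment. In the fit over all arrays 3 genes (Ccdc153, Dynlrb2 and Tppp3) were called higher in both, which is 60.0% of the 5 and 42.9% of the 7. Of all 13815 tested genes, 506 (3.66%) were called higher in both, out of 1232 called higher in PF68 and 1337 in SWCNT. The 60.0% and 42.9% are shares of called members, so they compare with 506 of 1232 and 506 of 1337, not with 3.66%. A difference above 0 in both treatments was seen for 17 of 30 members and 34.6% of all genes; with the spike scaling the PF68 directions change as given above.

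RNA quality moved with the day and, less, with the treatment. For beta-actin, the 3′ probe set exceeded the 5′ one, a gap that widens with RNA breakdown, by 2.02 ± 0.02 and 1.34 ± 0.03 on day 1 (PF68, then SWCNT) and by 3.27 ± 0.03 and 2.97 ± 0.04 on day 7 (log2; SD, n = 2). That of Gapdh was 1.04, 0.716, 2.41 and 2.21 in the same order. The day and this RNA measure cannot be told apart here. In whole lung tissue, more ciliated cells and more RNA per ciliated cell cannot be told apart either. The 18 airway secretory genes, from the neighbouring cell type of the airway lining, averaged 4.15 to 4.16 per PF68 array and 4.24 to 4.29 per SWCNT array on day 1, and 4.30 to 4.45 and 3.87 to 3.92 on day 7. Of these secretory genes 6 rose and 3 fell between the days in PF68, and 2 rose and 6 fell in SWCNT. Scgb1a1, the secretoglobin that defines club cells, differed between the days by -0.11 ± 0.11 (SE) in PF68 and 0.11 ± 0.11 in SWCNT and was called in neither. The part of secretory cells in the ciliary result was not tested. Markers of other tissues were high on the SWCNT day 1 arrays. The 12 skeletal muscle genes averaged 2.43 to 2.51 there, against -1.16 to -0.86 on the other 6 arrays, and 9 of 11 tested were higher than in PF68. The 6 adipocyte genes averaged 2.52 to 2.55 on those arrays and 0.58 to 1.46 on the others, and the 11 basal and stratified epithelium genes 0.55 to 0.61 against -1.51 to -1.19. On the SWCNT day 7 arrays the 10 macrophage genes averaged 4.29 to 4.30, against 2.94 to 3.25 elsewhere. On the same arrays the 9 neutrophil genes averaged 1.68 to 1.76, against 2.54 to 2.79 elsewhere, with 5 lower and 1 higher than in PF68 on day 7. The 10 endothelial genes averaged 3.98 to 3.99 there, against 4.14 to 4.61 elsewhere, with 5 lower than in SWCNT day 1. What part these tissues and cells have in the ciliary values was not tested.

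**Figure D2:**
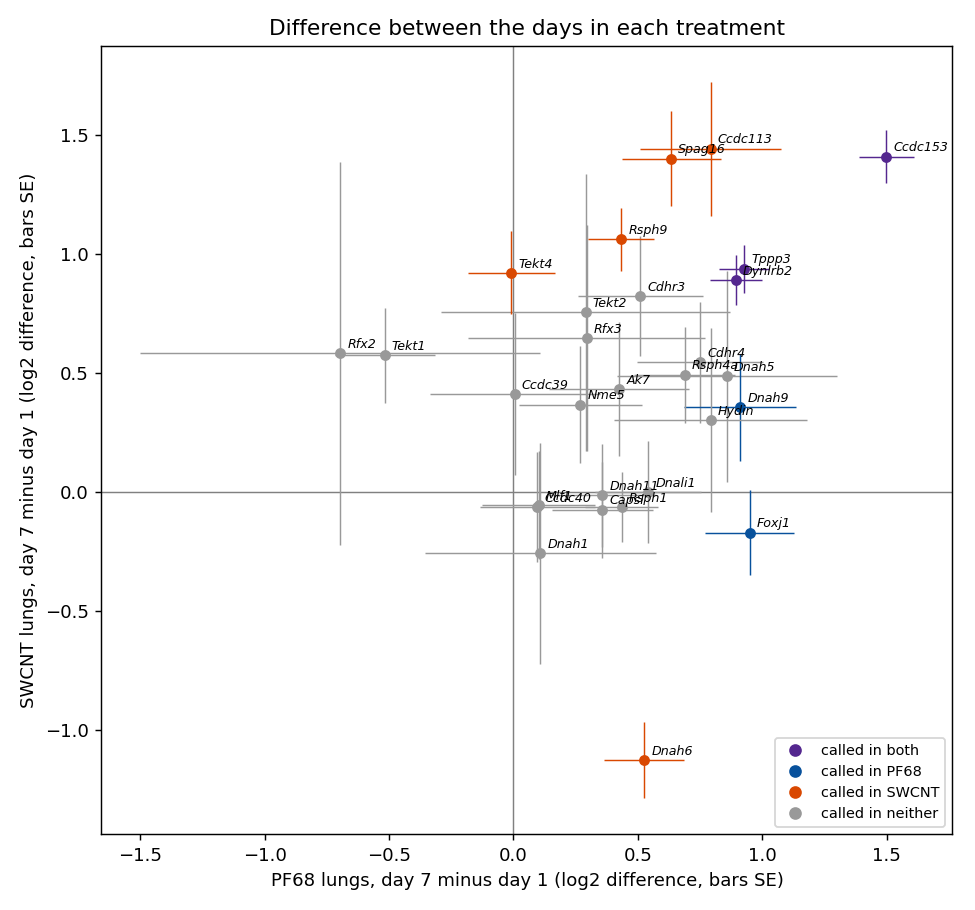
Day 7 minus day 1 in PF68 lungs (horizontal axis) against the same difference in SWCNT lungs (vertical axis) for the 29 tested members, in log2 with bars of 1 SE from limma, coloured by where a member was called. Ccdc153, Tppp3 and Dynlrb2 lie high on both axes, Foxj1 is high on the PF68 axis alone and Dnah6 is the one member called lower. Scaling to the hybridization spikes would move every point by -0.76 on the horizontal and 0.14 on the vertical axis.

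Among the transcription factors, Foxj1, the forkhead factor of motile ciliogenesis, read 1.21 and 1.53 in PF68 day 1 and 2.45 and 2.20 in PF68 day 7. In SWCNT lungs it read 1.62 and 1.49 on day 1 and 1.24 and 1.53 on day 7. Only the PF68 day 7 arrays stood apart, above the other 6. The rise in PF68 was 0.95 ± 0.18 (SE; 1.93-fold; limma adjusted p = 0.0219), and scaled to the spikes it was 0.19 and not called. In SWCNT the difference was -0.17 ± 0.18 (adjusted p = 0.555 in limma). The test of whether the treatments differed in it gave -1.12 ± 0.25 with a limma adjusted p of 0.0834, which missed the threshold. Rfx2 and Rfx3, both members of the RFX family, were not called in any comparison. Their arrays of one group lay as much as 2.38 (Rfx2, PF68 day 1) and 1.43 (Rfx3, PF68 day 7) apart, and Rfx2 reached the array median on 3 of 8 arrays.

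The radial spoke head transmits signals from the central pair to the dynein arms. Its member Rsph9 read 0.21 and 0.38 in PF68 day 1, 0.050 and 0.16 in SWCNT day 1, 0.61 and 0.85 in PF68 day 7, and 1.18 and 1.16 in SWCNT day 7. The groups of day 7 lay above those of day 1 in both treatments without overlap. Rsph9 rose by 1.06 ± 0.13 in SWCNT (2.09-fold; limma adjusted p = 0.00877), and the PF68 difference of 0.43 ± 0.13 was not called (adjusted p = 0.076 in limma). Rsph1, needed for the same structure, read 1.36 and 1.34 in PF68 day 1, 1.13 and 1.41 in SWCNT day 1, 1.67 and 1.90 in PF68 day 7, and 1.25 and 1.15 in SWCNT day 7. As for Foxj1, the PF68 day 7 arrays were the highest of the 8, but no comparison of Rsph1 passed the test; the difference from SWCNT on day 7 was -0.58 ± 0.15 (limma adjusted p = 0.0953). Rsph4a, also of the spoke head, differed between the days by 0.69 ± 0.20 in PF68 and 0.49 ± 0.20 in SWCNT, with neither difference called.

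The members include 7 genes for chains of dynein motors. Dynlrb2, a roadblock-type light chain of dynein motors, read 3.01 and 2.93 in PF68 day 1, 2.81 and 2.86 in SWCNT day 1, 3.87 and 3.86 in PF68 day 7, and 3.68 and 3.78 in SWCNT day 7. All day 7 arrays were above all day 1 arrays. The rise was 0.89 ± 0.10 in PF68 (1.86-fold; limma adjusted p = 0.0093) and 0.89 ± 0.10 in SWCNT (1.85-fold; adjusted p = 0.00817); scaled to the spikes the PF68 difference was 0.13 and not called. Dnah9, an outer arm heavy chain, read -0.25 and -0.35 in PF68 day 1, -0.016 and -0.15 in SWCNT day 1, 0.80 and 0.43 in PF68 day 7, and -0.0075 and 0.55 in SWCNT day 7. Its PF68 arrays separated by day and rose by 0.91 ± 0.22 (1.88-fold; limma adjusted p = 0.0435), while in SWCNT the difference was 0.36 ± 0.22 and not called. The PF68 call was lost under 13 of 18 alternatives, and scaled to the spikes the difference was 0.15. Its second probe set, which reached the array median on 2 of 8 arrays, differed by 0.58 between the days in PF68.

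Dnah6, an inner arm heavy chain, departed from the other members. It read -0.017 and 0.022 in PF68 day 1, 0.33 and 0.44 in SWCNT day 1, 0.70 and 0.36 in PF68 day 7, and -0.87 and -0.62 in SWCNT day 7. The SWCNT day 7 arrays were the 2 lowest of the 8, and 1 of them was below the array median. Between the days Dnah6 fell by 1.13 on the log2 scale in SWCNT (SE 0.16; 2.18-fold; limma adjusted p = 0.0117), while the PF68 difference of 0.53 ± 0.16 was not called (adjusted p = 0.0764 in limma). The SWCNT call was lost without any 1 of the 4 SWCNT arrays (limma adjusted p from 0.0567 to 0.0695), and the gene rests on 1 probe set.

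Dnali1, the inner arm light intermediate chain, read 0.37 and 0.26 in PF68 day 1, 0.37 and 0.99 in SWCNT day 1, 0.82 and 0.89 in PF68 day 7, and 0.74 and 0.62 in SWCNT day 7. On the probe set used, its PF68 arrays separated by day and its SWCNT arrays overlapped, with neither difference called. The other Dnali1 probe set reached the array median on 4 of 8 arrays. It differed between the days by 0.92 in PF68 and 0.85 in SWCNT. The probe set used differed by 0.54 and -0.0005, so the Dnali1 probe sets disagree in SWCNT. The heavy chains Dnah5 and Dnah11 of the outer arm and Dnah1 of the inner arm were called in no comparison. Their PF68 differences between the days were 0.86 ± 0.44, 0.36 ± 0.22 and 0.11 ± 0.46. The other Dnah1 probe set, at or above the array median on 3 of 8 arrays, differed by 1.44 in PF68 and -0.32 in SWCNT. All 7 dynein chains had PF68 differences above 0 between the days, or 3 of 7 scaled to the spikes. In SWCNT 3 of 7 were above 0 on the probe sets used, or 5 of 7 scaled. Other genes of dynein arms and their assembly, none of them members, were mixed in direction in PF68. Of 15 measured, 7 were above 0 in PF68, with a median of -0.19 on the deposited scale, and 9 in SWCNT, with a median of 0.02. Of the 10 tested, limma called 4 higher and 1 lower in PF68, against 8.92% and 8.93% of all tested genes. In SWCNT it called 1 higher and 1 lower, against 9.68% and 6.78%.

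Of the proteins of the doublets, Tppp3, a tubulin polymerization-promoting protein, read 4.75 and 4.77 in PF68 day 1, 4.38 and 4.42 in SWCNT day 1, 5.67 and 5.71 in PF68 day 7, and 5.38 and 5.30 in SWCNT day 7. The 4 groups did not overlap. Tppp3 rose by 0.93 ± 0.10 in PF68 (1.90-fold; limma adjusted p = 0.00874) and by 0.94 ± 0.10 in SWCNT (1.91-fold; adjusted p = 0.0071); scaled to the spikes the PF68 difference was 0.16 and not called. Tekt4, a tektin filament protein, read -0.00047 and 0.27 in PF68 day 1, -0.44 and -0.40 in SWCNT day 1, -0.067 and 0.32 in PF68 day 7, and 0.42 and 0.58 in SWCNT day 7. Only its SWCNT arrays separated by day, with a rise of 0.92 ± 0.17 (1.89-fold; limma adjusted p = 0.023), against -0.01 ± 0.17 in PF68.

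Tekt1 and Tekt2, the other tektins listed, were not called. The difference between the days of Tekt1 was -0.52 ± 0.20 in PF68 and 0.57 ± 0.20 in SWCNT, and the 2 differences differed by 1.09 ± 0.28 (limma adjusted p = 0.109). The PF68 day 7 arrays of Tekt2 lay 1.83 apart. Nme5, of the nucleoside diphosphate kinase family, read 1.20 and 1.01 in PF68 day 1, 1.12 and 1.50 in SWCNT day 1, 1.06 and 1.69 in PF68 day 7, and 1.61 and 1.74 in SWCNT day 7. Its SWCNT arrays separated by day, its PF68 arrays overlapped between the days, the treatments overlapped on each day, and it was not called. The 5 members listed together here, Tppp3, Tekt1, Tekt2, Tekt4 and Nme5, were all above 0 between the days in SWCNT, on either scaling. Their median was 0.76, or 0.90 scaled to the spikes.

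Of the central pair members, Spag16 and Spag17 had means below the array median. Spag16, a central apparatus protein, read -0.97 and -0.90 in PF68 day 1, -1.70 and -1.90 in SWCNT day 1, -0.40 and -0.20 in PF68 day 7, and -0.66 and -0.14 in SWCNT day 7. Its SWCNT day 1 arrays were the lowest, and both treatments separated by day. Spag16 rose by 1.40 ± 0.20 in SWCNT (2.64-fold; limma adjusted p = 0.0117). It reached the array median on 3 arrays, all of day 7, so it, too, passed the filter through the day on which it was high; with no filter the limma adjusted p was 0.0253, and with the filter on the mean it was not tested. Its 3 other probe sets, at or above the median on 0 of 8 arrays, differed by 0.13, -1.38 and -0.94 in the same comparison, so the probe sets disagree. Hydin, another central pair protein, differed by 0.79 ± 0.39 in PF68 and 0.30 ± 0.39 in SWCNT and was not called. The second Hydin probe set, at or above the array median on 3 of 8 arrays, differed by -1.18 in PF68 and 0.43 in SWCNT. The 2 Hydin probe sets thus disagree in PF68.

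Of the coiled-coil members, Ccdc153 read 2.12 and 2.19 in PF68 day 1, 1.89 and 1.98 in SWCNT day 1, 3.62 and 3.69 in PF68 day 7, and 3.27 and 3.41 in SWCNT day 7. The 4 groups did not overlap. Its rise was 1.50 ± 0.11 in PF68 (2.83-fold; limma adjusted p = 0.006) and 1.41 ± 0.11 in SWCNT (2.65-fold; adjusted p = 0.0051), and scaled to the spikes it was still called in PF68, at 0.74. Ccdc113, a coiled-coil protein of the cilium, read -0.64 and -0.78 in PF68 day 1, -0.88 and -1.61 in SWCNT day 1, 0.32 and -0.17 in PF68 day 7, and 0.25 and 0.15 in SWCNT day 7. Both treatments separated by day, and it rose by 1.44 ± 0.28 in SWCNT (2.72-fold; limma adjusted p = 0.0251), while 0.79 ± 0.28 in PF68 was not called (adjusted p = 0.109 in limma). Ccdc113 reached the array median on 4 arrays, all of day 7, so it passed the low-value filter through the day on which it was high; with no filter the SWCNT call had a limma adjusted p of 0.0462. Ccdc39 and Ccdc40, which together form the molecular ruler of the doublet, had PF68 differences of 0.01 ± 0.34 and 0.09 ± 0.23 and SWCNT differences of 0.41 ± 0.34 and -0.06 ± 0.23.

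**Figure D3:**
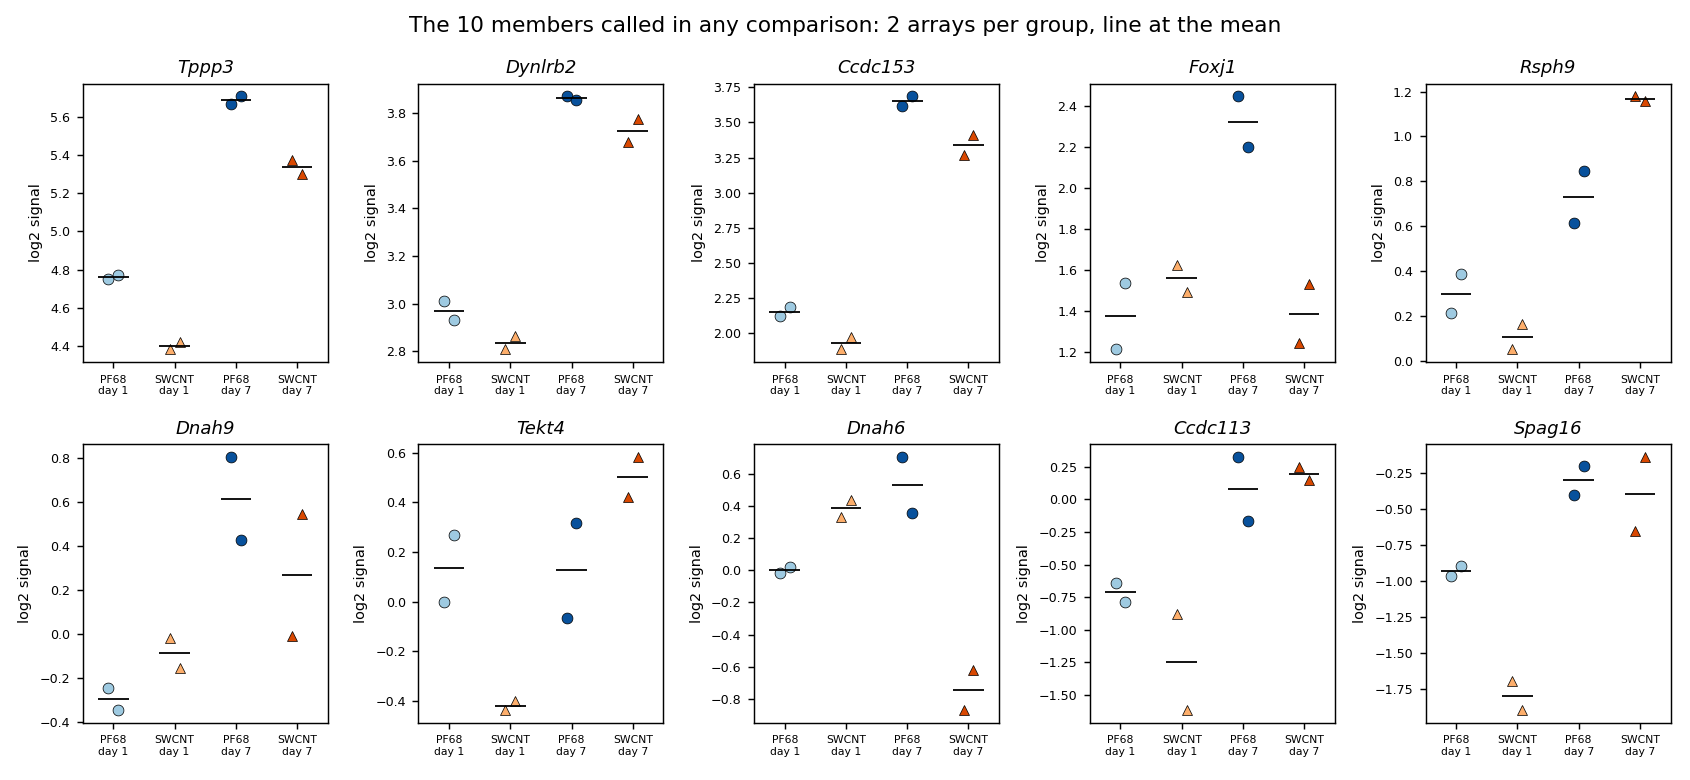
Signal (log2) of the 10 members called in any comparison in the 2 arrays of each group, with a line at the group mean and each vertical axis scaled to its gene, so heights are not comparable between panels. The 2 day 7 groups of Tppp3, Dynlrb2 and Ccdc153 stand above the 2 day 1 groups, the PF68 day 7 arrays of Foxj1 stand alone at 2.45 and 2.20, and the SWCNT day 7 arrays of Dnah6 are lowest.

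Of the 7 members of the ciliary tip, the surface and other roles, 5 were measured, and limma called 0 of the 5 in any comparison. Without adjustment (limma p under 0.05), 14 of the 29 tested members passed between the days in PF68, of which 13 were higher. In SWCNT 10 passed, of which 9 were higher. Shares of all genes at an unadjusted p are not given here or below, so such counts are not read as results about the members. Even with adjustment, 8.92% and 8.93% of all tested genes passed in PF68 (higher, then lower), and 9.68% and 6.78% in SWCNT. Cdhr4, a cadherin-related protein, read 0.87 and 1.24 in PF68 day 1, 0.84 and 1.42 in SWCNT day 1, 1.94 and 1.67 in PF68 day 7, and 1.53 and 1.81 in SWCNT day 7. Both treatments separated by day, with differences of 0.75 ± 0.25 in PF68 and 0.54 ± 0.25 in SWCNT. The second Cdhr4 probe set, at or above the array median on 8 of 8 arrays, differed by only 0.01 in PF68 and 0.18 in SWCNT. Ak7, an adenylate kinase of cilia, read 1.30 and 1.27 in PF68 day 1, 1.22 and 0.73 in SWCNT day 1, 2.0006 and 1.41 in PF68 day 7, and 1.17 and 1.65 in SWCNT day 7. Its PF68 arrays separated by day and its SWCNT arrays overlapped.

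Mlf1 read 0.59 and 0.51 in PF68 day 1, 1.35 and 0.92 in SWCNT day 1, 0.91 and 0.40 in PF68 day 7, and 1.18 and 0.98 in SWCNT day 7. Unlike Cdhr4 it separated by treatment on both days, higher in SWCNT by 0.58 ± 0.23 and 0.43 ± 0.23, and was not called. Cdhr3, the cadherin-related protein known as a rhinovirus C receptor in humans, differed between the days by 0.51 ± 0.25 in PF68 and 0.82 ± 0.25 in SWCNT. Capsl, a calcyphosine-like calcium-binding protein, differed by 0.36 ± 0.20 and -0.08 ± 0.20.

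The second question was what SWCNT changed relative to the solvent on each day. On day 1, 0 of 29 members were called in either direction by limma, against 0.934% of all tested genes called higher and 1.24% called lower. Of the 5 members at an unadjusted p under 0.05, 2 were higher (Capsl and Mlf1) and 3 lower (Spag16, Tekt4 and Tppp3). The share of all genes at that p is not given, so this count is not read as a result about the members. The median over the members was -0.005, against -0.016 over all genes, and 15 of 30 differences were above 0, or 4 of 30 scaled to the spikes, where the medians were -0.30 and -0.31. Both SWCNT arrays were above both PF68 arrays for 5 members and below for 12, against 22.8% and 25.6% of all genes. Spag16 had the lowest adjusted p, 0.101 in limma, at -0.86 ± 0.20. All its day 1 arrays, in PF68 and in SWCNT, lay below the array median, where signal is weak. Its 3 other probe sets, which reached that median on no array, differed by -0.002, 0.58 and 0.86 in this comparison. They do not share the fall. Scaled to the spikes, 2 members were called, both lower. Every gene moves by -0.29 under this scaling, so the count is not read as a result about the members.

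On day 7, 0 of 29 members were called higher and 1 lower, against 1.48% and 0.818% of all tested genes. The 1 was Dnah6, which was lower in SWCNT at -1.27 ± 0.16 (2.42-fold; limma adjusted p = 0.0349; 95% interval -1.67 to -0.88), and scaled to the spikes at -0.66. This call was lost when any 1 of the 8 arrays was left out (limma adjusted p from 0.0724 to 0.158) and with the replicate block (0.0818), and over all alternatives its adjusted p ran from 0.0147 to 0.203. Scaled to the spikes, 9 members were called, 8 of them higher. This scaling adds 0.61 to the difference of every gene, so the count is not read as a result about the members. On the deposited scale Foxj1 was next after Dnah6, at -0.94 ± 0.18 (1.91-fold lower, adjusted p = 0.0609 in limma), and did not pass. The median over the members was -0.12, against 0.02 over all genes, and 11 of 30 differences were above 0, or 27 of 30 scaled to the spikes, where the medians were 0.50 and 0.63. Both SWCNT arrays were above both PF68 arrays for 4 members and below for 8, against 25.4% and 23.1% of all genes. On the probe sets used, all 7 dynein chains had differences below 0 on day 7, with a median of -0.17. After scaling to the spikes, 1 of the 7 was below 0. The other probe sets of Dnah1, Dnah9 and Dnali1 differed by -1.83, 0.11 and -0.01 on the deposited scale. Of the 15 other measured genes of dynein arms and their assembly, 7 were above 0 on the deposited scale, with a median of -0.01.

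The change of the SWCNT minus PF68 difference from day 1 to day 7 was tested directly. It was called for 0 members higher and 1 lower of 29, against 1.45% and 0.963% of all tested genes. The 1 was again Dnah6, whose difference went from 0.38 ± 0.16 on day 1 to -1.27 ± 0.16 on day 7, a change of -1.65 ± 0.23 (limma adjusted p = 0.0365). This call, too, was lost when any 1 array was left out (limma adjusted p from 0.0614 to 0.142) and with the replicate block (0.0789). Scaled to the spikes, 10 members were called, 9 of them higher, and Dnah6 was the 1 lower. Since the scaling adds 0.90 to the change of every gene, this count is not read as a result about the members. On the deposited scale the changes ranged over the members from -1.65 to 1.28 with a median of -0.05. Tppp3, Dynlrb2 and Ccdc153 gave changes of 0.01 ± 0.14, -0.0027 ± 0.15 and -0.09 ± 0.16, with 95% intervals of -0.34 to 0.36, -0.37 to 0.36 and -0.48 to 0.30. Each of the 3 was lower in SWCNT than in PF68 on both days without overlap of the arrays, by -0.36 and -0.35 for Tppp3, -0.13 and -0.14 for Dynlrb2 and -0.22 and -0.31 for Ccdc153, and none of these differences was called; on day 7 scaled to the spikes all 3 would be above 0. The 3′ minus 5′ gaps of beta-actin and Gapdh given above were also smaller in SWCNT than in PF68 on both days, so the 4 groups stood in the same order by these gaps as by the means of the 3 genes; the part of RNA quality in these differences was not tested.

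**Figure D4:**
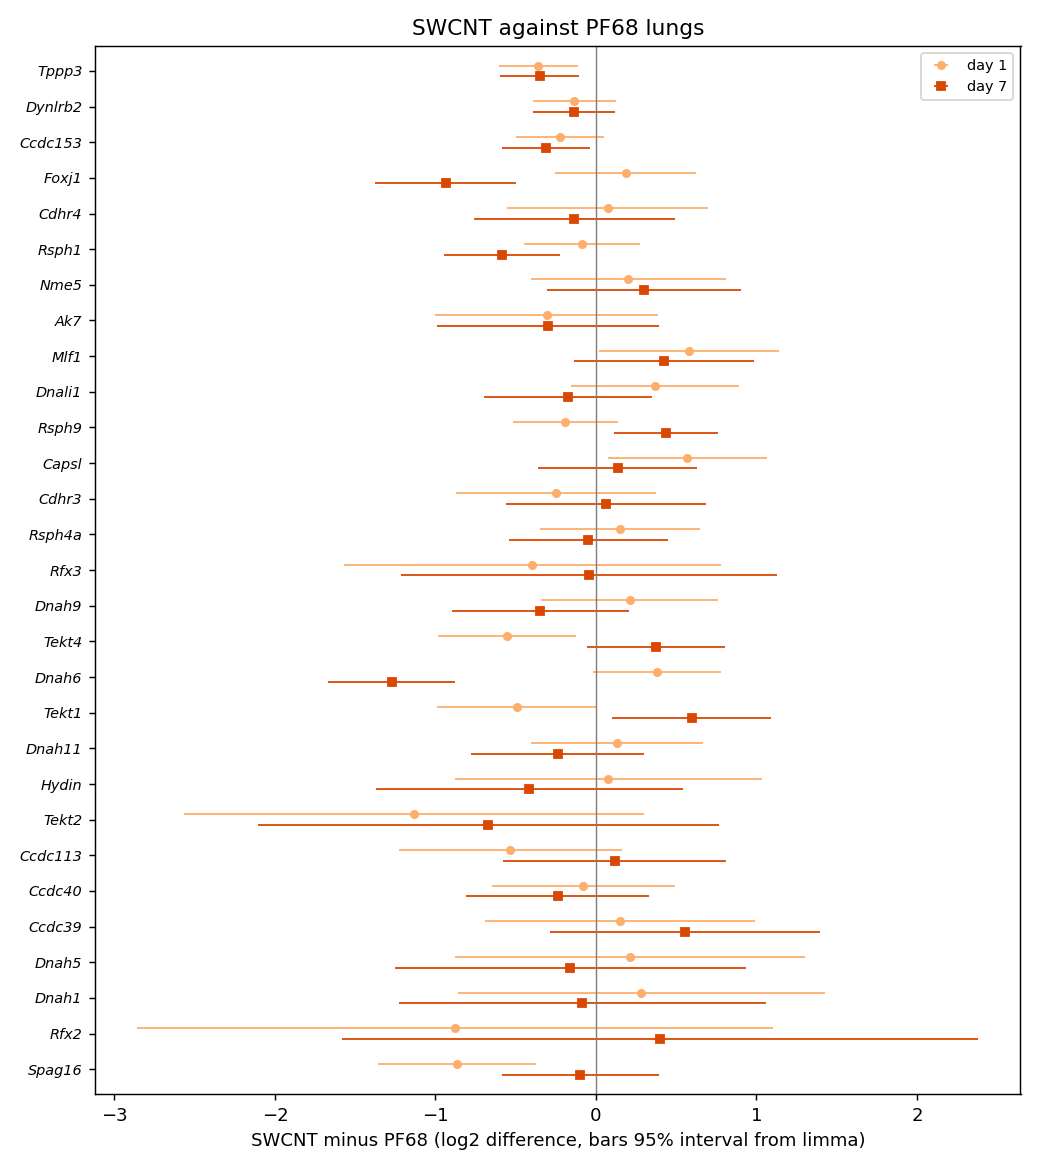
SWCNT minus PF68 for each of the 29 tested members on day 1 (circles) and day 7 (squares), in log2 with 95% intervals from limma. Most intervals cross 0; Dnah6 on day 7, at -1.27, is the one member called, and Foxj1 on day 7 lies at -0.94. Scaling to the hybridization spikes would add -0.29 to every circle and 0.61 to every square.

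Wider lists of cilium genes, none of them members, were described by 5 roles and held 133 genes, of which 107 were measured and 90 tested. On day 1 between the treatments limma called 0 of the 90, and 19 had an unadjusted p under 0.05, of which 15 were lower in SWCNT. The count of 19, too, has no share of all genes beside it and is not read as a result about these lists. On day 7 there was 1 higher, Ttll9, an enzyme of the tubulin tyrosine ligase-like family, at 1.77 ± 0.14 (limma adjusted p = 0.0138), and 1 lower, Spef1, a microtubule-binding protein of the central pair, at -0.90 ± 0.13 (adjusted p = 0.0414). Between the days 13 rose and 5 fell in PF68, and 11 rose and 3 fell in SWCNT, read against the shares of all genes given above. The medians over the 107 genes were 0.16 and 0.33, below the 0.43 and 0.46 of the members, and this difference between lists was not tested.

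By role, Dnaaf1, a factor of dynein arm assembly, rose by 0.86 ± 0.21 in PF68 and 1.46 ± 0.21 in SWCNT, and Dynlrb1, the more widely expressed paralog of Dynlrb2, fell by 0.70 and 0.50 on the log2 scale. Of the radial spoke, central pair and nexin link genes, Spef1 rose by 1.12 ± 0.13, Cfap54, of the central apparatus, by 1.13 ± 0.25 and Drc3, of the nexin links, by 0.74 ± 0.17 in PF68. In SWCNT Dnajb13, of the radial spoke, rose by 1.34 ± 0.14 and Drc3 by 0.90 ± 0.17, while Rsph3a, also of the spoke, fell by 1.49 on the log2 scale. Intraflagellar transport carries building parts along the cilium: Ift27 rose by 1.10 ± 0.24 in each treatment and Ift122 by 1.17 ± 0.25 in SWCNT. Tuba1a, an alpha-tubulin, rose by 0.41 ± 0.10 and 1.07 ± 0.10, and Ttll9 fell by 2.42 on the log2 scale in PF68. Of the 10 tested regulators of the multiciliated cell program, limma called 0 in PF68 (2 at an unadjusted p under 0.05); in SWCNT Plk4, a kinase of centriole duplication, rose by 0.98 ± 0.21 and E2f4 fell by 1.51 on the log2 scale.

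**Figure D5:**
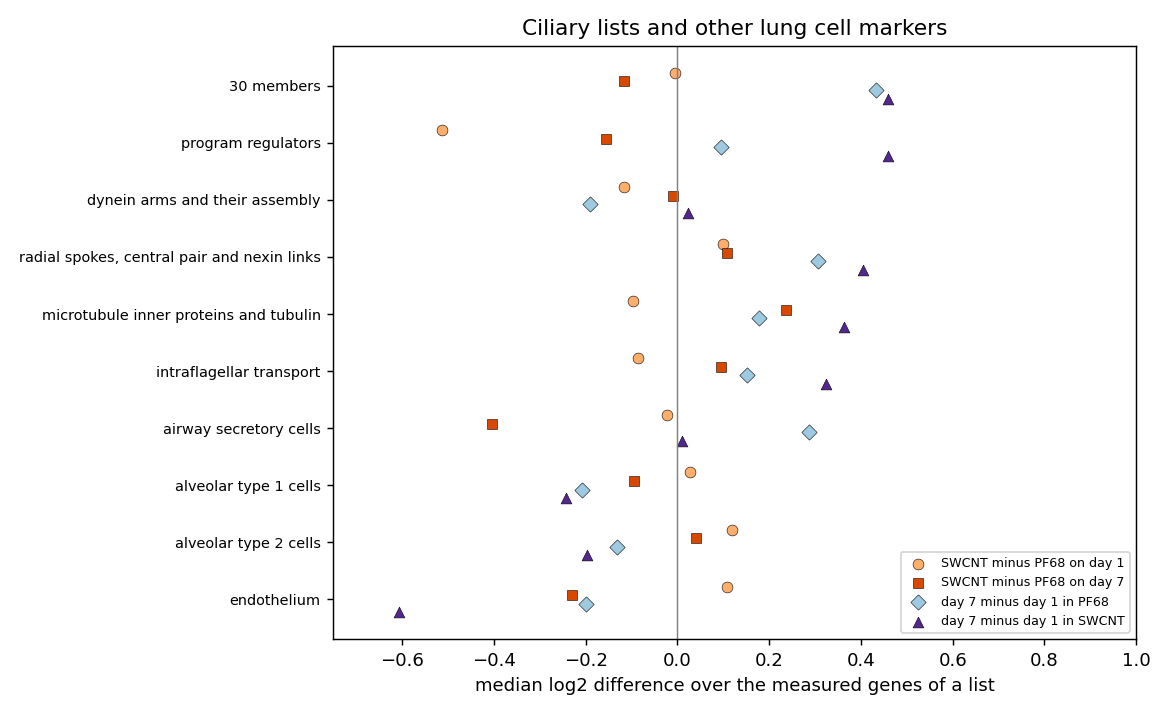
Median log2 difference over the measured genes of each list (horizontal axis) for the 30 members, the 5 wider ciliary lists and 4 lists of markers of other lung cells, in 4 comparisons marked by symbol. The members' medians between the days, at 0.43 in PF68 and 0.46 in SWCNT, stand to the right of 0, and the alveolar and endothelial lists lie left of 0 in both; scaling to the spikes would move the PF68 symbols between the days by -0.76.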

How the data were processed

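Whole lung lobe RNA, 2 samples in each of 4 groups, was hybridized to 8 single-colour Affymetrix mouse arrays. The deposited table gives 1 log2 value per probe set and array, made by the authors with RMA per the submitters' processing notes; RMA's version, the base of the log and the centring are not stated in the sources at hand, and the base was read as 2 from the range. Of 45101 probe sets, 34939 had 1 gene symbol in the platform annotation. For each gene the probe set with the highest mean was kept, and a gene was tested if it reached the array median on 2 or more of the 8 arrays. limma 3.58.1 (R 4.3.3) fitted the 4 group means to all arrays, with Benjamini-Hochberg adjustment over 13815 genes. No measured value enters the rule for the members, but members and lists were chosen with earlier results of these data known. Named genes were those called and the 10 with the highest mean, and of the wider lists at most 4 called genes each. Alternatives covered the filter, the probe set, the arrays fitted, weights, the variance model, a replicate block, spike scaling, the threshold and each array left out. The fit was tested on simulated data with independent noise whose spread depended on signal level alone. That test does not cover RNA quality or the spike scaling. The same replicate number in 2 groups does not pair arrays: correlations of their deviations ran from -0.005 to 0.011.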

Additional observations from a re-analysis of the deposited data

Results flagged for a closer look

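The SWCNT minus PF68 difference of Dnah6 differed between the days in the fit's own test of that difference, by -1.65 ± 0.23 on the log2 scale (limma adjusted p = 0.0365). Its value went from higher in both SWCNT arrays on day 1 to lower in both on day 7. With any 1 array left out the change ran from -1.48 to -1.83 and was not called, and scaled to the hybridization spikes it was -0.75 (adjusted p = 0.031).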

How the results depend on the processing

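With 2 arrays per group, 4 residual degrees of freedom and many members near the array median, calls depended on the settings. Scaled to the hybridization spikes, members called numbered 2 on day 1 (0 higher) and 9 on day 7 (8 higher). For the change between days they numbered 10 (9 higher), and between the days in PF68 4 (1 higher). The medians were -0.30, 0.50, 0.86 and -0.33 in that order, and 0.60 between the days in SWCNT. In a given comparison the scaling moves all genes by one amount, so these counts are not read as results about the members. With trend and robust variance there were 1, 4 and 2 calls on day 1, on day 7 and for the change; at an adjusted p of 0.10 there were 3 on day 7, 2 for the change and 11 between the days in PF68; with the filter on the mean there were 2 on day 7. Fitted on only the arrays compared, limma called 0 members on day 7 and between the days in either treatment. Without a filter, with the probe set of highest variance, or with the replicate block, 0 were called on day 7 and for the change; the replicate block gave 0 on day 1, 4 and 8 between the days. Averaging probe sets gave a SWCNT median between the days of 0.37. The change between days has no value on only the arrays compared, since it uses all 4 groups. Leaving out each array in turn gave 0 calls in each case on day 1, on day 7 and for the change, 0 to 5 between the days in PF68 (0 without either PF68 day 1 array) and 1 to 8 in SWCNT (1 and 2 without a SWCNT day 7 array, 3 and 4 without a SWCNT day 1 array). The medians then ran from -0.10 to 0.053, -0.19 to 0.035, -0.17 to 0.10, 0.43 to 0.56 and 0.35 to 0.55 in the same order. Of the single members, Ccdc153 in SWCNT missed the threshold only when fitted on the arrays compared (limma adjusted p = 0.0508). The cause of these changes was not tested.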
